A study of Rattus norvegicus with 25 samples.

Results

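Heat shock proteins and their DnaJ and BAG cochaperones were followed in the striatum of rats given levodopa alone or with trapidil. Members were the gene names in the deposited count table whose symbol belongs to the Hspa, Hspb, Hspd, Hspe, Hsph, Hsp90, Hspbp, Dnaja, Dnajb, Dnajc or Bag1 to Bag6 series and whose counts summed to 100 or more over all libraries. They were thus chosen by summed count, a measure of overall abundance over all arms. The rule gave 69 members among 28909 gene names, from 78 matching names. All 25 animals were female Sprague Dawley rats with a 6-OHDA lesion, a toxin lesion of dopamine neurons, and all received levodopa at 6 mg/kg QD, named in the series title as levodopa/benserazide. The levodopa arm (n = 5) had no trapidil, and the other arms had trapidil at 7.5 mg/kg BID (n = 10) or 15 mg/kg BID (n = 10) on top of levodopa. Dosing lasted 14 days, the striatum on the lesion side was collected on day 15 at 1 hour of dosing, and polyadenylated RNA was sequenced. The sources used here give no ages. Since every arm was lesioned and received levodopa, the comparisons concern trapidil on that background, and no unlesioned or levodopa-free animals were analysed here. Trapidil is known as a phosphodiesterase inhibitor and an antagonist of platelet-derived growth factor.

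HSP70 proteins bind exposed hydrophobic stretches of unfolded proteins and release them in a cycle driven by ATP. DnaJ proteins deliver substrates and start ATP hydrolysis, while HSP110, HspBP1 and several BAG proteins make HSP70 release its nucleotide. HSP90 completes the folding of kinases and steroid receptors, and small heat shock proteins hold unfolded proteins until HSP70 takes them over. Heat shock factor 1 raises transcription of many of these genes during proteotoxic stress by binding heat shock elements, inverted repeats of GAA units in promoters. In dopaminergic and striatal neurons the system is studied for its handling of aggregating proteins, and several DnaJ genes are linked to inherited parkinsonism.

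Total gene counts ran from 10838513 to 20532290 per library, and the 69 members took 0.744 ± 0.0771% of them with levodopa alone (SD, n = 5). Their share was 0.781 ± 0.0433% with trapidil at 7.5 mg/kg and 0.794 ± 0.0305% with 15 mg/kg (SD, n = 10 each). Just inside the sum of 100 stood Dnajc22 (113) and Hspb2 (115), and just outside it Dnajb7 (29) and Hspb9 (53). Of the members, 66 passed the low-count filter of the test; Dnajc22, Hspb2 and Hspb7 did not, none of them above 0.771 CPM (CPM, read counts divided by the scaled library total) in any library. Hsp90aa1, the inducible cytosolic HSP90, Hspa1a, an inducible HSP70, Bag5 and Dnajc5g were listed at 0 in every library, and Hspa1b was not analysed here. A listed 0 may not mean absence of expression, since annotation and the counting of shared reads can also give it, which was not tested. The values below therefore hold no inducible HSP70 of that pair and no Hsp90aa1. Medium spiny neuron markers of striatum summed to between 9248 and 16565 CPM in every library, against 23.8 to 82.6 CPM for cortical excitatory neuron markers. Levodopa replicate 2 stood apart from its arm. It was the lowest of the 5 levodopa animals for 30 of the 66 tested members (45.5%; 32.7% over all tested genes) and the highest for 20 (30.3%; 33.0% over all tested genes). It also had the highest levodopa sums of oligodendrocyte, endothelial, astrocyte and microglial markers and the lowest of spiny neuron markers. Values that moved most without it are also given without it.

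Promoter sequences show which members carry the letters of a heat shock element. RefSeq promoters of the GRCr8 assembly, matched by symbol, were found for 56 of the 69 members, and the 250 bases before the start were searched. The counts were made on another build, Rnor_6.0. The pattern of 2 units was GAANNTTC or TTCNNGAA, each its own reverse complement, so both strands were covered. In the pattern of 3 units, GAANNTTC was followed by NNGAA, or TTCNNGAA by NNTTC, each the reverse complement of the other, and every such match also holds 2 units. The pattern of 3 units stood before 4 of the 56 members (7.14%), Hspa8, Hspd1, Hspe1 and Hsph1, and in 0.663% of all 33469 windows. The pattern of 2 units stood before 15 members (26.8%) and in 13.5% of all windows. Members were counted once per symbol and the background once per window, so the 2 shares are not in the same unit. A match of letters is a description and not a shown binding site. Printed below, 5′ to 3′ on the gene's strand with the matched letters in capitals, are stretches for the carriers of 3 units, for Dnajb1, and for Bag3, Hspb1 and Hspb8, which hold the form GAAGTTTC (as do Hspa9 and Hspb6) and recur in the results.
Hsph1, chr12:10427248-10427348, plus strand: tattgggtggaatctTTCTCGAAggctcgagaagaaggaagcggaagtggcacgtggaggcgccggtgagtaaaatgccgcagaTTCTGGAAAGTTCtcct
Hspa8, chr8:50080289-50080479, plus strand: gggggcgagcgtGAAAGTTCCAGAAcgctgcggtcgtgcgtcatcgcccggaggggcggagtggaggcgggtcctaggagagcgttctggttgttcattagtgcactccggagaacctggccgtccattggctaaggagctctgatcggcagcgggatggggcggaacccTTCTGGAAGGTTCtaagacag
Hspe1, chr9:64084242-64084292, plus strand: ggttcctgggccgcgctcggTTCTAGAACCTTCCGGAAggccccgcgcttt
Dnajb1, chr19:41431142-41431181, minus strand: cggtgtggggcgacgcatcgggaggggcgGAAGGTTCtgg
Bag3, chr1:192533310-192533355, plus strand: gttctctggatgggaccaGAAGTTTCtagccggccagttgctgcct
Hspb1, chr12:26432391-26432446, minus strand: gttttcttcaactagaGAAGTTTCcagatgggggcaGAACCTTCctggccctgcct
Hspb8, chr12:45837258-45837307, plus strand: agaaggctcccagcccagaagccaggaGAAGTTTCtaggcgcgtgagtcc
Hspd1 and Hspe1, the chamber and the lid of the mitochondrial chaperonin, start 290 bases apart on opposite strands, so the Hspe1 element shown is also the element before Hspd1. Hspa8 holds 2 elements of 3 units, whose first bases lie 213 and 55 bases before its start.

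The main comparison asked whether trapidil changed the expression of these chaperones. With edgeR, 0 of the 66 tested members passed at an adjusted p below 0.05 in any comparison. Over all 14142 tested genes, 0.0283% were called at 7.5 mg/kg, 1.31% at 15 mg/kg, 0.0283% between the doses and 0.806% for the mean of both doses against levodopa. At an unadjusted p below 0.05, 5 members stood out at 7.5 mg/kg (7.58%, against 11.7% of all genes), 3 of them higher (5.02% of all genes) and 2 lower (6.64% of all genes). At 15 mg/kg there were 11 (16.7%, against 19.5% of all genes), 6 of them higher (8.26% of all genes) and 5 lower (11.2% of all genes). Between the doses there was 1 (1.52%, against 3.63% of all genes), which was higher at 15 mg/kg (1.49% of all genes), and 0 were lower (2.14% of all genes). For the mean of both doses there were 10 (15.2%, against 18.1% of all genes), 6 of them higher (7.62% of all genes) and 4 lower (10.5% of all genes). With edgeR the members' share with both directions summed lay below that of the table in each comparison, while the share of higher members at 15 mg/kg, for both doses and between the doses did not. Without levodopa replicate 2 the counts in the comparisons with levodopa were 2 at 7.5 mg/kg (3.03%, against 6.59% of all genes), 3 at 15 mg/kg (4.55%, against 12.7%) and 3 for both doses (4.55%, against 10.5%). Leaving out the 7.5 mg/kg replicate 1 gave members' shares of 12.1% at 7.5 mg/kg (16.6% of all genes) and 15.2% at 15 mg/kg (22.1%). The share for both doses was then 21.2% (22.7%). Leaving out the 7.5 mg/kg replicate 6 gave 12.1% at 7.5 mg/kg (15.1%), 15.2% at 15 mg/kg (20.4%) and 16.7% for both doses (20.9%). DESeq2 called 1 member at 15 mg/kg, Bag3 (2.2% of all 28909 gene names called). limma-voom called 1, Hspb8 (5.06% of the 14142 tested genes called). The DESeq2 shares are over all gene names, those without counts included, and so are not on the scale of the limma-voom shares. DESeq2 and limma-voom both called 0 members at 7.5 mg/kg (0.183% of gene names and 0.721% of tested genes). Between the doses both called 0 (0.0208% of gene names and 0.0919% of tested genes).

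The members' differences were small. At 15 mg/kg the log2 fold changes ran from -0.53 (Bag3) to 0.27 (Bag4), with a median of 0.02 over 66 members and 0.00 over all genes. The 95% interval of the difference lay within 0.5 log2 units of 0 for 62 of 66 members (93.9%), against 69.6% of all genes. The exceptions were Bag3, Hspb1, Dnajc17 and Dnajb13. At 7.5 mg/kg it lay there for 63 members, with fold changes from -0.44 (Hspb1) to 0.23 (Dnajb13). Low counts widen such intervals, and the members and all genes were not matched for abundance. No member had ranges that did not overlap between any pair of arms, against 0.0919% of all genes at 7.5 mg/kg, 0.707% at 15 mg/kg and 0% between the doses. Spread between animals of an arm was also modest, with a median SD of 0.15 on the log2 scale for members and 0.16 for all genes.

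**Figure D1:**
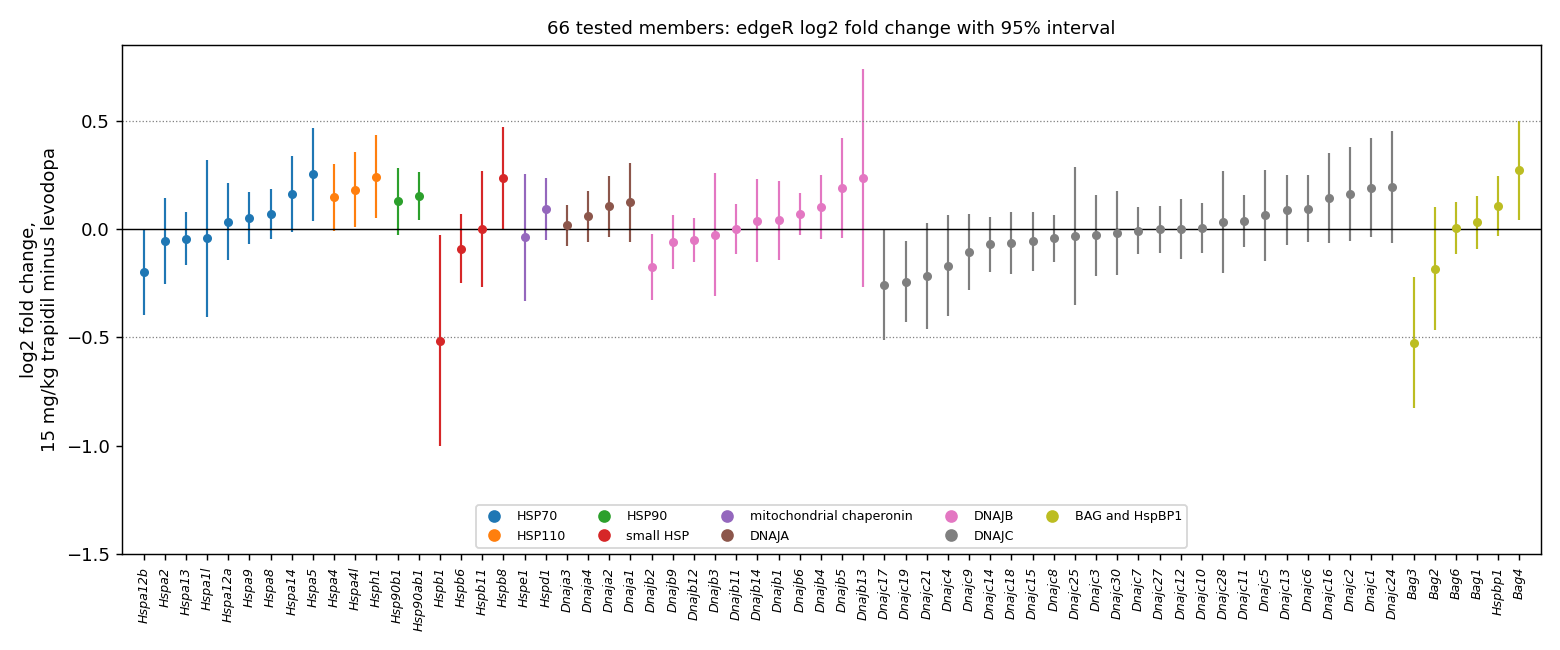
Each point is the edgeR log2 fold change of 1 tested member at 15 mg/kg trapidil against levodopa, with its 95% interval, ordered by family; dotted lines mark 0.5 log2 units. Most intervals cross or lie near 0, and the points farthest below are Bag3 (-0.53) and Hspb1 (-0.52).

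Among HSP70 genes, 9 tested members had a median log2 fold change of 0.03 at 15 mg/kg, 5 positive and 4 negative, and 0 passed. Hspa8 encodes HSC70, the constitutive cytosolic HSP70, and carries the 2 elements printed above. It was at 936, 759, 893, 870 and 819 CPM in the levodopa animals, at 835 to 1053 (median 894) with 7.5 mg/kg and at 839 to 1001 (median 890) with 15 mg/kg. The arms overlapped nearly throughout, and the interval of its difference at 15 mg/kg ran from -0.05 to 0.18. Hspa5 encodes BiP, the HSP70 of the endoplasmic reticulum that also holds the unfolded protein response in check. It was at 283, 255, 291, 266 and 277 CPM with levodopa, at 238 to 420 (median 315) with 7.5 mg/kg and at 269 to 415 (median 313) with 15 mg/kg. The levodopa animals lay close together, while the treated animals reached higher. The 7.5 mg/kg range covered the levodopa range only through its replicate 6 (238 CPM, next 279). The 15 mg/kg range began above levodopa replicates 2 and 4. The log2 fold changes of Hspa5 were 0.23 ± 0.10 (SE, edgeR adjusted p = 0.407) and 0.25 ± 0.10 (edgeR adjusted p = 0.184). Hspa9, the mitochondrial HSP70, averaged 141 ± 14.3 CPM under levodopa alone (SD, n = 5) and 146 ± 7.39 CPM under 15 mg/kg trapidil (SD, n = 10). The lowest HSP70 fold change was that of Hspa12b, a divergent member known from endothelium, with levodopa replicate 2 at 18.6 CPM and the other 4 levodopa animals at 12.3 to 13.5 CPM.

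All 3 HSP110 genes, which recharge HSP70 and with it pull aggregates apart, were on the positive side at both doses, and 0 passed. Hsph1 was at 508, 335, 546, 555 and 563 CPM with levodopa, at 457 to 625 (median 574) with 7.5 mg/kg and at 537 to 681 (median 589) with 15 mg/kg. Levodopa replicate 2 was the lowest of all libraries, and the other levodopa animals fell among the treated ones. The log2 fold change at 15 mg/kg was 0.24 ± 0.09 (SE; edgeR adjusted p = 0.153), and 0.13 without levodopa replicate 2. At 7.5 mg/kg it was 0.15 ± 0.09, and 0.04 without that library. Hspa4l and Hspa4 stood at 0.18 ± 0.08 and 0.15 ± 0.08 at 15 mg/kg, and at 0.09 and 0.08 without levodopa replicate 2. Hspa4l at 7.5 mg/kg had the same pair of values, 0.18 ± 0.08 and 0.09.

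Of the HSP90 genes, Hsp90ab1, the cytosolic form made without stress and raised further by heat, was at 1673, 1353, 1600, 1705 and 1539 CPM with levodopa, at 1488 to 1852 (median 1758) with 7.5 mg/kg and at 1696 to 1863 (median 1730) with 15 mg/kg. Levodopa replicate 4 was the 1 levodopa animal inside the 15 mg/kg range. It had the smallest p of the higher members in both comparisons with levodopa, with log2 fold changes of 0.12 ± 0.05 (edgeR adjusted p = 0.404) and 0.15 ± 0.05 (edgeR adjusted p = 0.124). The upper end of the 95% interval at 15 mg/kg was 0.26. Without levodopa replicate 2 its values were 0.07 and 0.10. Hsp90b1, the form of the endoplasmic reticulum, averaged 330 ± 18.0 CPM under levodopa alone (SD, n = 5) and 360 ± 25.8 CPM under 15 mg/kg trapidil (SD, n = 10). That is 0.13 ± 0.08 on the log2 scale.

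Bag3 and the small heat shock protein Hspb1 held the widest differences from levodopa. As a group, the 4 tested small heat shock proteins had a median of -0.05 at 15 mg/kg. Bag3 brings HSP70 and small heat shock proteins together and sends aggregates to autophagy. It was at 22.5, 41.9, 25.7, 19.6 and 21.9 CPM with levodopa, at 14.0 to 27.1 (median 20.3) with 7.5 mg/kg and at 13.5 to 21.2 (median 19.1) with 15 mg/kg. Levodopa replicate 2 was far above all others, and levodopa replicate 4 lay inside both treated ranges. The log2 fold changes were -0.34 ± 0.15 at 7.5 mg/kg (edgeR adjusted p = 0.391) and -0.53 ± 0.15 at 15 mg/kg (edgeR adjusted p = 0.0632). Bag3 was thus the member nearest to a call. Without levodopa replicate 2 these values were -0.10 and -0.29 (edgeR adjusted p = 0.335 at 15 mg/kg). Without levodopa replicate 4 the value at 15 mg/kg was -0.61 and passed (edgeR adjusted p = 0.0242), and it also passed without the 7.5 mg/kg replicate 1 (adjusted p = 0.0388) or 6 (adjusted p = 0.0495). DESeq2 called it as well (-0.53; adjusted p = 0.0272).

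Hspb8, a small heat shock protein that works in a complex with Bag3, was on the other side of 0. It was at 21.0, 31.4, 17.3, 20.4 and 18.0 CPM with levodopa, at 21.5 to 29.2 (median 25.8) with 7.5 mg/kg and at 22.5 to 34.5 (median 23.7) with 15 mg/kg. All treated animals were above 4 of the 5 levodopa animals, and levodopa replicate 2 was above all treated ones but 1. The log2 fold change at 15 mg/kg was 0.23 ± 0.11 (edgeR adjusted p = 0.253), and 0.41 without levodopa replicate 2 (edgeR adjusted p = 0.0948). limma-voom, which gives deviant libraries less weight, called it at 0.40 (adjusted p = 0.023). With the 7.5 mg/kg replicates 1 and 6 also left out, a choice made after seeing the data, edgeR gave 0.41 (adjusted p = 0.0378).

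Hspb1, known as HSP27, was the most variable member, with an SD of 0.41 on the log2 scale. It was at 19.9, 23.1, 10.3, 9.24 and 9.03 CPM with levodopa, at 8.23 to 13.2 (median 10.2) with 7.5 mg/kg and at 4.59 to 16.1 (median 9.86) with 15 mg/kg. Levodopa replicates 1 and 2 were above every treated animal, and the other 3 lay inside both treated ranges. Its log2 fold changes were -0.44 ± 0.24 (edgeR adjusted p = 0.475) and -0.52 ± 0.24 (edgeR adjusted p = 0.225), and -0.20 and -0.28 without levodopa replicate 2. Hspb6, found in muscle and vessel walls, was at -0.13 ± 0.08 at 7.5 mg/kg, and -0.05 without levodopa replicate 2.

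Levodopa replicate 2, the library with the highest Bag3, Hspb1 and Hspa12b, also had the highest vascular and astrocyte marker sums. The summed endothelial markers (8 of 11 listed were in the table, Cldn5 at 0) reached 470 CPM in levodopa replicate 2, while its 4 arm mates had 266 to 288 CPM. They were at 212 to 282 CPM with 7.5 mg/kg and at 198 to 259 CPM with 15 mg/kg. The 8 astrocyte markers summed to 7168 CPM in levodopa replicate 2, against 3597 to 4603 CPM in the other 4 levodopa animals and 2940 to 4763 CPM in treated animals. The 10 pericyte and smooth muscle markers summed to 243 CPM in that library, against 113 to 198 CPM in the other 4 levodopa animals and 121 to 171 CPM in treated ones. Between the arms, all 12 oligodendrocyte markers were on the negative side at 15 mg/kg (median log2 fold change -0.60). By edgeR's adjusted p, 6 of them fell. All 7 tested endothelial markers were also negative (median -0.36), and 2 fell. Of all 14142 tested genes, 142 fell, and 1.31% were called in either direction. Without levodopa replicate 2, 20 genes were called at 15 mg/kg, and marker values without it are not given here. The 8 astrocyte and 9 tested pericyte and smooth muscle markers were all negative, as were 6 of 7 microglial markers, and 0 fell. Of 10 spiny neuron markers, 9 were positive and 0 passed. Cortical neuron and choroid plexus lists were divided in sign. All 11 tested ependymal markers were on the positive side (median 1.09; 0 passed). Marker lists thus moved between the arms beside the members' differences, and their part in the members' values was not tested. In these bulk samples, fewer cells of a type and less RNA per cell cannot be told apart.

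**Figure D2:**
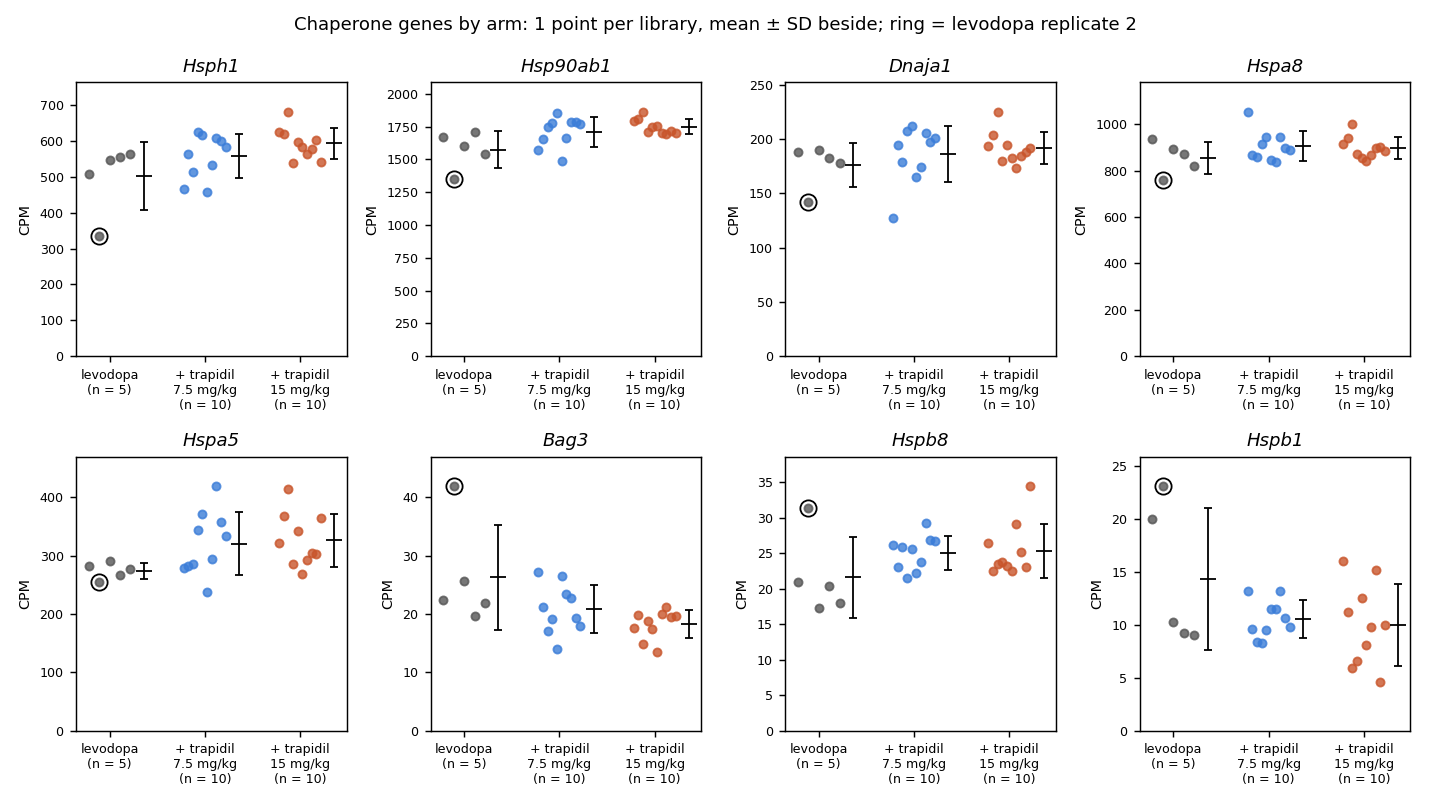
Each point is the CPM of 1 library on an axis from 0, for 8 chaperone genes in the levodopa (n = 5), 7.5 mg/kg (n = 10) and 15 mg/kg (n = 10) arms, with the mean and SD beside; the ring marks levodopa replicate 2. That library is lowest for Hsph1 (335 CPM) and highest for Bag3 (41.9 CPM).

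The other BAG genes gave a mixed picture. Of the 6 tested BAG and HspBP1 members, Bag3 included, 4 were positive and 2 negative at 15 mg/kg. Bag4 was at 10.0, 6.17, 9.61, 12.9 and 8.76 CPM with levodopa and at 10.4 to 13.1 (median 11.5) with 15 mg/kg. Levodopa replicates 2 and 4 marked both ends of the levodopa arm. Its log2 fold change at 15 mg/kg was 0.27 ± 0.11 (edgeR adjusted p = 0.184), the most positive of the 66, and 0.15 without levodopa replicate 2. Without levodopa replicate 4 it was 0.41 and passed (edgeR adjusted p = 0.0303). Bag6, which guards tail-anchored membrane proteins, was level at 308 ± 23.3 CPM (SD, n = 5) and 309 ± 13.5 CPM (SD, n = 10), and the interval of its difference ran from -0.12 to 0.12.

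Type A DnaJ proteins, the general cochaperones of HSP70, were positive in 4 of 4 members at both doses, and 0 passed. Dnaja1 was at 188, 142, 190, 183 and 178 CPM with levodopa, at 128 to 212 (median 196) with 7.5 mg/kg and at 173 to 225 (median 190) with 15 mg/kg. Low values came from levodopa replicate 2 and from the 7.5 mg/kg replicate 1. Its log2 fold change at 15 mg/kg was 0.12 ± 0.09, and 0.06 without levodopa replicate 2. Dnaja4 at 7.5 mg/kg was at 0.11 ± 0.06, and 0.05 without that library. Dnaja3, the mitochondrial member, had the smallest spread of all members above 5 CPM, an SD of 0.07, and was at 63.8 ± 3.06 CPM (SD, n = 5), 65.2 ± 2.82 CPM and 64.5 ± 3.40 CPM (SD, n = 10 each).

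Type B members divided evenly, 6 of 11 positive at 15 mg/kg, and 0 passed. Dnajb1, the heat-inducible HSP40 with the element printed above, was at 92.3, 60.9, 83.4, 69.7 and 73.4 CPM with levodopa, at 70.9 to 109 (median 80.1) with 7.5 mg/kg and at 65.6 to 85.9 (median 78.1) with 15 mg/kg. The arms overlapped, and the interval at 15 mg/kg ran from -0.15 to 0.22. Dnajb2, a cochaperone that binds ubiquitin and is enriched in neurons, was at 125, 143, 121, 110 and 117 CPM with levodopa and at 95.6 to 138 (median 106) with 15 mg/kg. Its log2 fold change was -0.17 ± 0.07 (edgeR adjusted p = 0.192), and -0.11 without levodopa replicate 2. Dnajb6, known to hold back polyglutamine aggregation, averaged 59.7 ± 3.07 CPM under levodopa alone (SD, n = 5) and 62.7 ± 2.86 CPM under 15 mg/kg trapidil (SD, n = 10). Dnajb12, of the membrane of the endoplasmic reticulum, was at 59.5 ± 2.73 CPM (SD, n = 5) and 57.4 ± 2.85 CPM (SD, n = 10). Both were among the 3 steadiest members, with SDs of 0.07 and 0.08. Dnajb13, a gene of cilia and flagella, was at 0.992 to 2.34 CPM with levodopa and 1.03 to 2.68 CPM at 15 mg/kg, too low for a narrow interval (-0.27 to 0.74).

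Dnajb5 was the 1 member with an unadjusted p below 0.05 between the doses. It was at 167, 103, 166, 96.7 and 170 CPM with levodopa, at 106 to 154 (median 140) with 7.5 mg/kg and at 127 to 187 (median 158) with 15 mg/kg. Levodopa animals fell into a low pair, replicates 2 and 4, and a high 3, and the treated ranges lay across the gap between them. The log2 fold change of 15 against 7.5 mg/kg was 0.22 ± 0.09 (edgeR adjusted p = 0.999), and it ranged from 0.19 to 0.26 when 1 library was left out at a time. Next in that comparison were Dnajc24, which serves diphthamide synthesis, at 0.19 ± 0.10, and Bag3 at -0.19 ± 0.12, both with edgeR adjusted p = 0.999.

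Type C members, which tie HSP70 to particular places, were positive in 11 and negative in 14 of 25 at 15 mg/kg, with a median of -0.01, and 0 passed. Those of synapses and endosomes included Dnajc6, auxilin, which uncoats clathrin vesicles and is linked to juvenile parkinsonism. It was at 170, 133, 185, 190 and 182 CPM with levodopa and at 160 to 201 (median 184) with 15 mg/kg, levodopa replicate 2 being the lowest library. The interval of its difference ran from -0.06 to 0.25. Dnajc5, the cysteine string protein of synaptic vesicles, was at 65.4, 36.6, 62.7, 58.5 and 57.8 CPM with levodopa and at 54.1 to 65.3 (median 58.8) with 15 mg/kg. All 4 levodopa animals other than replicate 2 lay between 57.8 and 65.4 CPM, close to the treated range. Dnajc12, a cochaperone of the aromatic amino acid hydroxylases that include tyrosine hydroxylase, averaged 14.3 ± 0.841 CPM under levodopa alone (SD, n = 5), 13.7 ± 1.32 CPM (SD, n = 10) at 7.5 mg/kg and 14.3 ± 0.758 CPM (SD, n = 10) at 15 mg/kg. Its interval at 15 mg/kg ran from -0.14 to 0.14.

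Dnajc19 serves the motor that pulls proteins into mitochondria, and it had the smallest p of all members at 7.5 mg/kg. It was at 23.9, 25.8, 17.4, 19.5 and 21.3 CPM with levodopa, at 14.1 to 21.0 (median 17.9) with 7.5 mg/kg and at 15.7 to 20.3 (median 18.7) with 15 mg/kg. Levodopa replicates 1, 2 and 5 were above every treated animal, and replicates 3 and 4 lay among them. Its log2 fold changes were -0.27 ± 0.09 (edgeR adjusted p = 0.287) and -0.24 ± 0.09 (edgeR adjusted p = 0.138), and -0.20 and -0.17 without levodopa replicate 2. Dnajc17, a nuclear DnaJ protein, was at -0.26 ± 0.12 at 15 mg/kg (edgeR adjusted p = 0.247), and -0.18 without levodopa replicate 1. The mitochondrial chaperonin was nearer to 0. Hspd1 averaged 183 ± 5.69 CPM under levodopa alone (SD, n = 5) and 195 ± 8.58 CPM under 15 mg/kg trapidil (SD, n = 10), or 0.09 ± 0.07 on the log2 scale. Hspe1 was at 4.38 ± 1.02 CPM (SD, n = 5) and 4.27 ± 0.836 CPM (SD, n = 10), but near-identical copies of this gene can take its reads, so its level is uncertain. The mitochondrial group of 9 had a median of 0.02, 5 positive, at 15 mg/kg.

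By shared known function, the 11 tested heat-inducible members (of 14 listed) had a median of 0.09 at 15 mg/kg, 8 positive and 3 negative, and 0 passed. At an unadjusted p below 0.05, 3 were higher (Hsp90ab1, Hsph1 and Hspa4l) and 2 lower (Bag3 and Hspb1). These were 5 of 11 members (19.5% of all genes; 8.26% higher and 11.2% lower), and the list was chosen with earlier results known. Carriers of the 3-unit element ran from -0.04 (Hspe1) to 0.24 (Hsph1), on both sides of the group's median of 0.09. The group's range was -0.53 to 0.24, with Bag3 and Hspb1 at its low end. The 11 members of the endoplasmic reticulum had a median of 0.00, with Hspa5 the 1 at an unadjusted p below 0.05. Of the 4 vesicle and endosome members 3 were positive, with a median of 0.07.

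Among the genes around the members, lists chosen with earlier results known, edgeR called none. In every comparison 0 of the 76 tested genes on the 7 lists of other chaperone and stress-response genes passed. Of all tested genes, 0.0283% passed at 7.5 mg/kg, 1.31% at 15 mg/kg, 0.0283% between the doses and 0.806% for both doses. Heat shock factor Hsf2 was at 24.0, 20.8, 28.7, 27.7 and 26.3 CPM with levodopa, at 27.2 to 33.1 (median 30.1) with 7.5 mg/kg and at 27.2 to 32.8 (median 29.7) with 15 mg/kg. The lowest treated animals lay below 2 of the 5 levodopa animals. Its log2 fold change at 15 mg/kg was 0.24 ± 0.06 (edgeR adjusted p = 0.0577), and 0.17 without levodopa replicate 2. DESeq2 called it (adjusted p = 0.0209), and edgeR did without levodopa replicate 4 (adjusted p = 0.0276), the 7.5 mg/kg replicate 1 (0.037) or 6 (0.0479), or the 15 mg/kg replicate 4 (0.0456). The 4 tested heat shock factors were divided, 2 positive and 2 negative at 15 mg/kg, from -0.62 to 0.24. The lowest, Hsf4, named after its values were seen, averaged 2.08 ± 0.726 CPM under levodopa alone (SD, n = 5) and 1.34 ± 0.388 CPM under 15 mg/kg trapidil (SD, n = 10), with no call (edgeR adjusted p = 0.177). Among 22 partners of HSP70 and HSP90, 19 were positive at 15 mg/kg with a median of 0.06, and Fkbp5, an HSP90 partner in glucocorticoid receptor complexes, had the smallest p (0.17 ± 0.07; edgeR adjusted p = 0.148). Xbp1, a transcription factor of the unfolded protein response, was at 25.6 ± 2.41 CPM (SD, n = 5), 31.4 ± 2.91 CPM and 30.0 ± 2.56 CPM (SD, n = 10 each), with 0.23 ± 0.07 at 15 mg/kg (edgeR adjusted p = 0.0881). Cct2, a subunit of the cytosolic chaperonin, was at 0.15 ± 0.04 (edgeR adjusted p = 0.0604), and 0.14 without levodopa replicate 2 (edgeR adjusted p = 0.173). DESeq2 called Cct2 (adjusted p = 0.00865), and edgeR did without the 7.5 mg/kg replicate 1 (0.0367) or 6 (0.0498). Clpx, of the mitochondrial protease, was at 0.14 ± 0.07 (edgeR adjusted p = 0.288), and 0.08 without levodopa replicate 2. The stress-induced heme oxygenase Hmox1 averaged 7.81 ± 2.49 CPM under levodopa alone (SD, n = 5) and 5.50 ± 0.966 CPM under 15 mg/kg trapidil (SD, n = 10). Its fold change was -0.50 ± 0.15 on the log2 scale (edgeR adjusted p = 0.0756), and -0.35 without levodopa replicate 2. DESeq2 called Hmox1 (adjusted p = 0.0405), and edgeR did without levodopa replicate 4 (adjusted p = 0.0467) or 5 (0.0277). Cryab, the small heat shock protein αB-crystallin of oligodendrocytes and astrocytes, was at 48.5 ± 13.8 CPM (SD, n = 5), 50.4 ± 14.0 CPM and 40.2 ± 8.00 CPM (SD, n = 10 each), with no call (edgeR adjusted p = 0.419 at 15 mg/kg).

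Within the arms, some chaperones were high or low in the same animals. Deviations of log2 CPM from the arm mean were correlated across the 25 animals, as a description without a test, since all gene pairs come from the same libraries and the pairs were picked for their values or as known partners. Over all 2145 pairs of tested members the median Pearson correlation was 0.06. The highest, 0.92 (Spearman 0.85), joined Dnaja4 and Hsph1. Hsph1 also went with Hspa4 (0.89; Spearman 0.85), Hsp90ab1 (0.86; Spearman 0.79), Hspa4l (0.84; Spearman 0.76) and Dnaja1 (0.82; Spearman 0.86). Hsph1 was lowest in 3 libraries, levodopa replicate 2 (335 CPM) and replicates 1 and 6 of the 7.5 mg/kg arm (465 and 457 CPM). The set did not follow them throughout: Hspa4l was at 130 CPM in the 15 mg/kg replicate 4, below its 134 CPM in the 7.5 mg/kg replicate 6. Without those 3 libraries the same 5 correlations were 0.80, 0.82, 0.66, 0.76 and 0.79. Oligodendrocyte markers summed to 19950, 16695 and 15782 CPM in these 3 libraries. The other 4 levodopa animals had 10921 to 14128 CPM, and the 15 mg/kg arm 6689 to 14081 CPM. The whole 7.5 mg/kg arm, its replicates 1 and 6 included, ran from 7553 to 16695 CPM with a median of 10249 CPM. The part of these markers in the set was not tested.

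Bag3 ran against that set. It gave the lowest correlation of all pairs, -0.82 with Dnaja4 (Spearman -0.75), and -0.82 with Hsp90ab1 (Spearman -0.75). Its highest levels were in the same libraries, at 41.9 CPM in levodopa replicate 2 and 27.1 and 26.5 CPM in the 7.5 mg/kg replicates 1 and 6. Without those 3 libraries the correlations were -0.63 and -0.64. Within the 15 mg/kg arm alone (n = 10) they were -0.78 and -0.57. With its partner Hspb8 the correlation was 0.41, and 0.19 without the 3 libraries.

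The 2 main chaperones of the endoplasmic reticulum, Hspa5 and Hsp90b1, also varied together, and with Hsph1 (0.60 and 0.68). Their correlation was 0.84 (Spearman 0.93), 0.90 without the 3 libraries, and 0.85 and 0.87 within the 7.5 and 15 mg/kg arms. Hspa5 was highest, at 420 and 415 CPM, in the 7.5 mg/kg replicate 8 and the 15 mg/kg replicate 3. Hsp90b1 was also high there, at 408 and 393 CPM. Hspa8 and its cochaperone Dnajb1 were at 0.76 (Spearman 0.63), and 0.66 without the 3 libraries. Hspd1 and Hspe1, which share a promoter region, were at -0.02 (Spearman -0.06), with the level of Hspe1 uncertain as said above. Heat-inducible members as a group had a median correlation of 0.13 over 55 pairs, and 0.08 without levodopa replicate 2, near the 0.05 of all members without it. Those of the endoplasmic reticulum had 0.25 over 55 pairs, and 0.21 without it.

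**Figure D3:**
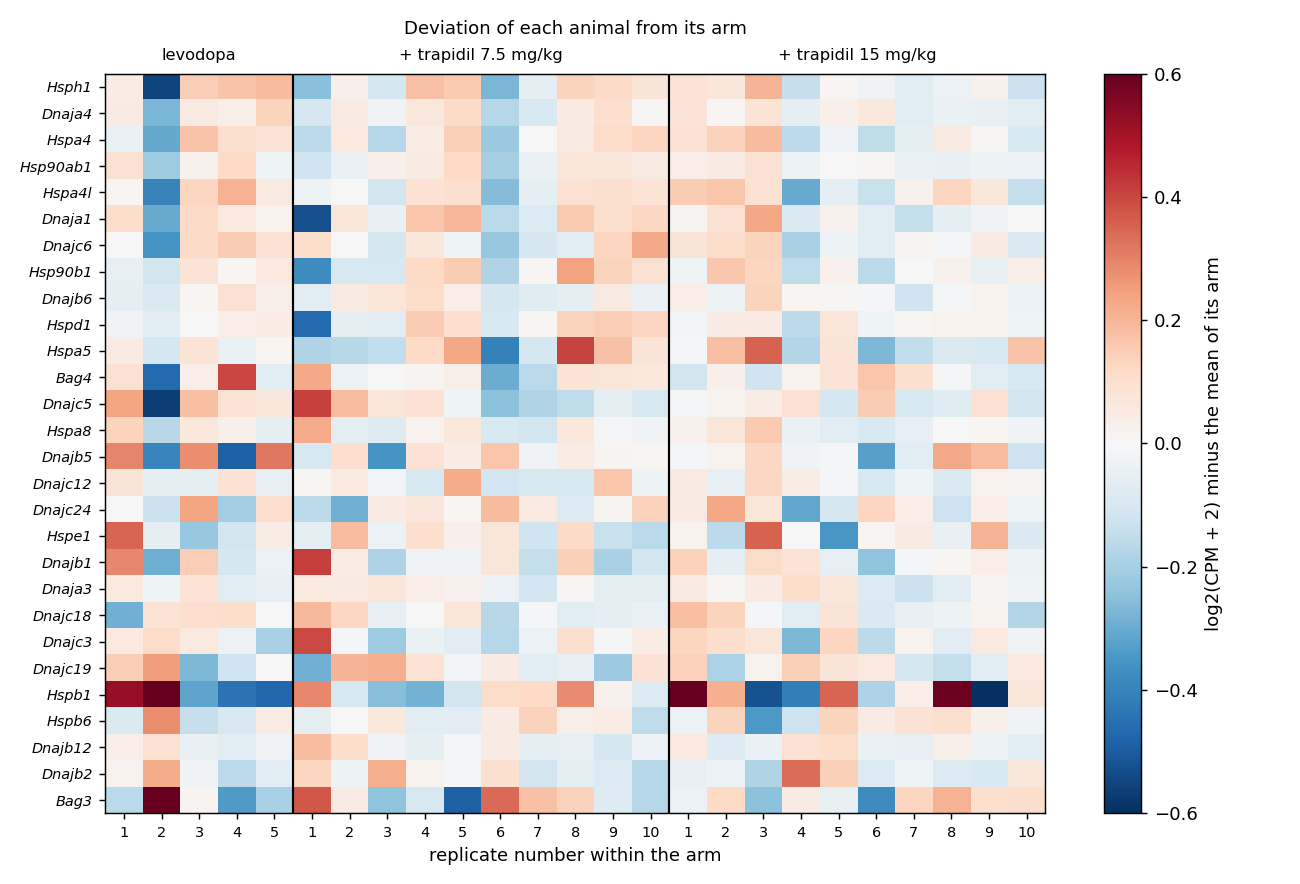
Colours give log2(CPM + 2) minus the mean of the arm for 28 named members (rows, ordered by correlation with Hsph1) in the 25 libraries (columns, by arm and replicate number); colours saturate at the ends of the scale. Levodopa replicate 2 is blue for Hsph1 and the rows next to it and red for Bag3.

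**Figure D4:**
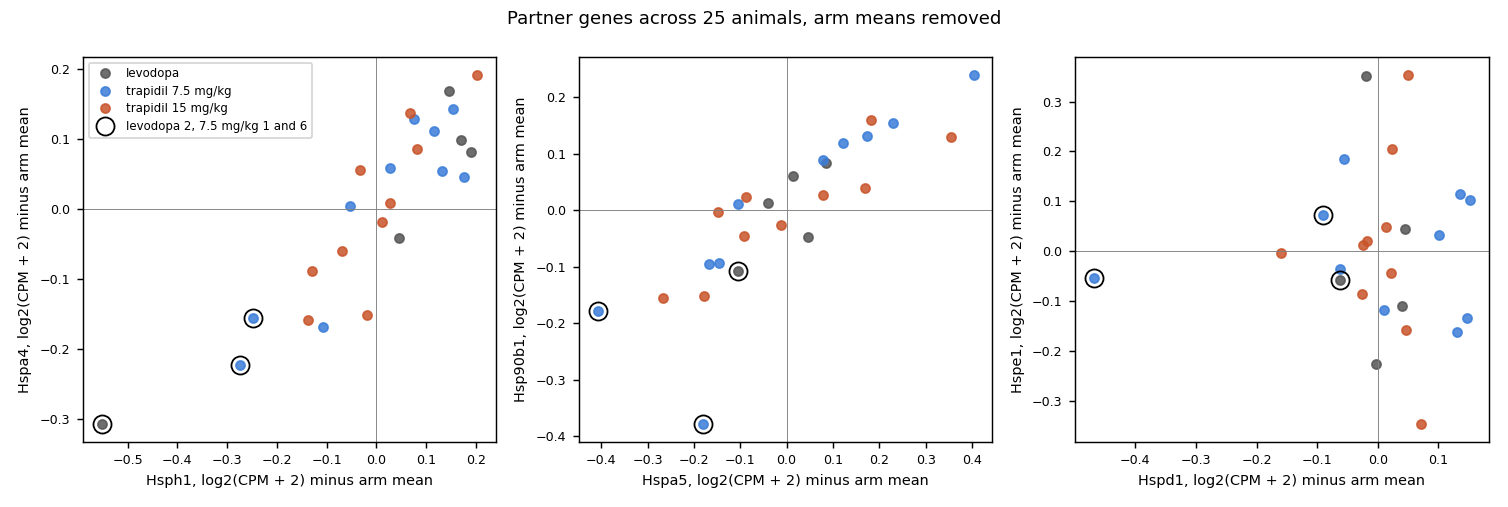
Each point is 1 library; axes give log2(CPM + 2) minus the arm mean for 3 pairs of partner genes, and rings mark levodopa replicate 2 as well as replicates 1 and 6 of the 7.5 mg/kg arm. Hsph1 and Hspa4 (0.89) and Hspa5 and Hsp90b1 (0.84) rise together, while Hspd1 and Hspe1 (-0.02) do not.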

How the data were processed

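Striatal polyadenylated RNA of 25 libraries was analysed. Raw counts of reads per gene name were deposited by the authors in 1 table. FastQC, STAR and HTSeq on Rnor_6.0 are listed in the submitters' processing notes; the sources used here give no versions, annotation release or strand setting, so reads of overlapping or near-identical genes cannot be separated. Arms came from the sample titles. Replicates were taken as separate animals; where they are not, p-values measure only the spread between samples. No batch was given. No pair of libraries of an arm agreed within sampling noise (lowest chi-square per degree of freedom 4.99).

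From the deposited counts, genes were filtered with filterByExpr (14142 kept), scaled by TMM and tested with edgeR 4.0.16 (glmQLFit, glmQLFTest) in 1 fit over all arms, two-sided, at 0.05 after adjusting p over all tested genes by Benjamini and Hochberg. Every adjusted p is from this test unless DESeq2 1.42.0 or limma-voom (limma 3.58.1) is named. The SE of a log2 fold change is its size divided by the root of its F statistic, and 95% intervals use the quasi-likelihood degrees of freedom. CPM uses the TMM factors, and logs a pseudocount of 2. The steps were tested on simulated data. Depth limits members of a few CPM most.

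Named genes were all called members, the 4 with the smallest p per direction and comparison, and a set of well-known chaperones. They also included the 3 most and least variable members above 5 CPM. Of each list of other chaperone and stress-response genes, the called gene, or that with the smallest p, was named. Members named beyond these rules were chosen after their values were seen. Members, lists and rules were chosen with earlier results of these data known. Alternatives changed normalization, filter, tool, threshold, the arms in the fit, a replicate block and the libraries.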

Additional observations from a re-analysis of the deposited data

Results flagged for a closer look

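Of 114 sets of a named gene in an arm, 12 had a highest or lowest animal separated from the others by more than Dixon's 95% critical value, and chance gives this in about 1 of 20 sets. Levodopa replicate 2 gave 5 of them. It was highest for Bag3 (41.9 CPM, next 25.7) and lowest for Hsph1 (335 CPM, next 508), Dnaja1 (142 CPM, next 178), Dnaja4 (65.0 CPM, next 81.3) and Dnajc5 (36.6 CPM, next 57.8). The 7.5 mg/kg replicate 1, the library with the fewest counts (10838513), gave 5 more. Over all tested genes this library was the lowest of its arm for 24.1% and the highest for 25.6%. Among tested members these shares were 25.8% and 30.3%. It was highest for Hspa8 (1053 CPM, next 945), Dnajb1 (109 CPM, next 89.9) and Dnajc3, an HSP70 cochaperone of the endoplasmic reticulum (20.4 CPM, next 16.2), and lowest for Hspd1 (133 CPM, next 174) and Fkbp5 (81.0 CPM, next 100.2). Levodopa replicate 1 was lowest for Dnajc18 (33.2 CPM, next 41.2), and the 15 mg/kg replicate 4 was lowest for Hspd1 (174 CPM, next 191). No cause was tested.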

How the results depend on the processing

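The count of members called was 0 in every comparison. At 15 mg/kg against levodopa it was 1 with DESeq2 (Bag3), with limma-voom (Hspb8), at an adjusted p of 0.10 (Bag3), and, chosen after seeing the data, without levodopa replicate 2 and replicates 1 and 6 of the 7.5 mg/kg arm (Hspb8). For the mean of both doses it was 1 with limma-voom (Hspb8), at 0.10 (Bag3) and without those 3 libraries (Hspb8). Leaving out 1 library at a time gave 0 to 2 in both comparisons, with 2 (Bag3 and Bag4) without levodopa replicate 4, where 6.29% and 3.64% of all genes were called, and 0 to 0 in the other comparisons. In the other settings with 1 member called, 1.68% to 6.1% of all genes were, the DESeq2 share being over all gene names. The cause was not tested. None of the 33 named fold changes changed sign under 11 other settings or 25 libraries left out in turn. The 0.10 setting reuses the main fit, so no sign could change there. Many of these genes were named for a small p in these data, so their stable signs are no separate support. Of 363 and 825 values, 352 and 813 stayed on their side of the threshold. With the replicate number as a block, 0 members were called in any comparison; the numbers did not pair the animals (8 of 20 same-numbered pairs had a correlation over 0.1, range -0.42 to 0.21). A fit of 2 arms alone gives no mean of both doses. The 5 levodopa animals, 1 of them apart, limit every comparison with levodopa.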
